A study of Rattus norvegicus with 10 samples.

Results

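The data describe 9 genes for the receptors that read complement fragments and for the proteins that restrain complement on or near cell surfaces: C3ar1, C5ar1, Itgam, Itgb2, Cd55, Cd59, Cd46, Clu and Csmd1. The genes were taken as a fixed list and looked up by symbol, through the Entrez identifiers of the bulk table. Of the 9 genes, 7 were among the 14166 genes of the bulk RNA-seq table and all 9 were among the 25399 genes of the single-nucleus (snRNA-seq) matrices. Itgam and Cd46 were not analysed here in bulk RNA.

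Complement is a cascade of plasma and tissue proteins that tags surfaces with C3 fragments, releases the small peptides C3a and C5a, and can end in a membrane-spanning pore. C3ar1 and C5ar1 are the G protein-coupled receptors for those peptides, and Itgam and Itgb2 pair to form complement receptor 3 (CR3, CD11b/CD18), an integrin with which microglia take up C3-tagged material, including synapses during development. Host cells limit the cascade with Cd55 (decay-accelerating factor, which takes apart the enzymes that cleave C3), Cd46 (membrane cofactor protein, which helps to inactivate bound C3 and C4 fragments; in rodents it is best known from testis) and Cd59 (which blocks pore assembly). Clu (clusterin, also apolipoprotein J) is a secreted chaperone that binds the terminal complex and is made in quantity by astrocytes, and Csmd1 is a very large transmembrane protein of the nervous system with complement control repeats.

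All tissue was the dissected ipsilateral dentate gyrus of young adult male Sprague-Dawley rats, taken from TBI and sham rats 3 weeks after the day of injury or sham injury. TBI rats had a craniectomy over the right parietal cortex and, 3 days later, a lateral fluid percussion injury (LFPI), in which a pulse of fluid strikes the intact dura. Sham rats had the same surgery without the pulse, and the naïve rat had no surgery. RNA of whole tissue (bulk RNA-seq) came from 3 sham and 3 TBI rats. Nuclei came from 2 TBI rats, 1 sham rat and 1 naïve rat, and the study joined the last 2 as its control group. Only males were used, 1 region was dissected, and the surgeries of the bulk rats fell in spring (sham 1, sham 2, TBI 1) and autumn (sham 3, TBI 2, TBI 3). The snRNA-seq control group mixes operated and unoperated rats, so that any effect of surgery is inside the spread of that group.

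Bulk libraries held 24730290 to 43912297 counts over the tested genes. The nuclei libraries held 26086141 to 35293678 UMIs (unique molecular identifiers, each standing for 1 captured RNA molecule) over 55124 nuclei, with a median of 1647 to 2652 UMIs per nucleus and rat. Clusters were named only from fixed marker genes, with the 9 genes left out of the features that built the clusters, and 9 classes of nuclei were named, here called by their type with the ending "-like". Kept out of the classes were 7554 unnamed nuclei (13.6% to 13.8% of each library) and 3 glial clusters with neuronal transcripts, of which the microglial one held 632 nuclei (0.697% of the sham, 0.603% of the naïve, 1.28% of the TBI 1 and 1.99% of the TBI 2 library). An unnamed cluster of 4611 nuclei carried granule neuron markers but had an astrocyte marker, Slc4a4, among its leading genes. Pairs of nuclei libraries shared 45 to 60 cell barcodes. Microglia-like nuclei were shallow (median 681 UMIs), so each microglial receptor value rests on few UMIs. Granule neuron-like nuclei, the principal cell of the dentate gyrus, made up 37.7% to 54.0% of each library.

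The promoters of C3ar1 and Itgam are shown because both genes were highest in microglia-like nuclei and because AGGAAG is the core that factors of the ETS family such as PU.1, a regulator of myeloid genes, bind. The 250 bases before each start are from RefSeq on the GRCr8 build, which is not the build of the expression data, and are written 5′ to 3′ on the gene's strand. C3ar1 lies at chr4:157756531-157756780 on the minus strand and Itgam at chr1:192089342-192089591 on the plus strand. Capitals mark AGGAAG or its reverse complement.
C3ar1: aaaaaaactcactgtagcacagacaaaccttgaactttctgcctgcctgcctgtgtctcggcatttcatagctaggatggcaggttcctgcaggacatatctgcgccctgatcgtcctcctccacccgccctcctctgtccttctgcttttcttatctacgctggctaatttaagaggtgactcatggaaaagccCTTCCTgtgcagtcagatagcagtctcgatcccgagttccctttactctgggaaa
Itgam: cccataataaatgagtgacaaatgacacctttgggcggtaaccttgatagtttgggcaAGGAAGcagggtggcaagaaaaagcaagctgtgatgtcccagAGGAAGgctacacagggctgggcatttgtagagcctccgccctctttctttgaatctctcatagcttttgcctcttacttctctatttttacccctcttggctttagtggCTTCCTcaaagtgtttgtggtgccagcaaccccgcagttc
The C3ar1 window held 1 match, 55 bases before the start, and the Itgam window held 3, at 192, 150 and 40 bases before it. Entries were found for 4 of the 9 genes, and the windows of Cd46 and Cd55 held 1 match and 0 matches. Of all 33469 promoters of the table, 29.5% held at least 1 match, so that a match is a description of letters and not of a bound site.

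C3ar1, the C3a receptor, was a low-count gene in bulk RNA, with 38 to 140 counts per library. It stood at 1.68, 2.27 and 0.865 CPM (counts of a gene scaled to a fixed total per library) in sham 1, 2 and 3 and at 2.10, 4.57 and 1.82 CPM in TBI 1, 2 and 3. The groups overlapped, and TBI 2 was the only library above the highest sham library. The means were 1.61 ± 0.707 CPM in sham and 2.83 ± 1.52 CPM in TBI (SD, n = 3), a Log2FC of 0.80 with an SE of 0.50 and a 95% interval of -0.38 to 1.98. It moved to 0.24 without TBI 2 and to 0.48 without sham 3, and was highest without sham 2. The difference did not pass the test (FDR 0.689 by edgeR's quasi-likelihood test with Benjamini-Hochberg adjustment over all 14166 genes).

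C5ar1, the C5a receptor that draws phagocytes to sites of activation, was as sparse, with 21 to 69 counts per library. Sham 1, 2 and 3 held 0.80, 2.09 and 1.25 CPM, and TBI 1, 2 and 3 held 1.58, 1.76 and 2.46 CPM. The groups overlapped, with sham 2 above both TBI 1 and TBI 2. The Log2FC was 0.44 (SE 0.43, 95% interval -0.56 to 1.45), moved to 0.17 without sham 1 and to 0.86 without sham 2, and did not pass (FDR 0.817, edgeR's quasi-likelihood test with Benjamini-Hochberg adjustment). Both intervals included 0 and reached past 1 on the log2 scale. The difference in mean log2 CPM within the surgery periods was 0.11 in spring and 1.73 in autumn for C3ar1, and 0.28 and 0.73 for C5ar1, with only 1 rat of a group in each period.

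In nuclei, both anaphylatoxin receptors were highest in microglia-like nuclei, in each rat above every rat's value in the class next in order. C3ar1 stood there at 38.4 CPM in the sham, 28.3 in the naïve, 25.9 in the TBI 1 and 30.3 in the TBI 2 rat (mean 30.7 ± 5.45, SD over the 4 rats), from 55 UMIs. C5ar1 stood at 15.4, 81.4, 23.7 and 22.7 CPM in the same order (35.8 ± 30.6), also from 55 UMIs, with the naïve rat far above the other 3. A UMI of C3ar1 was found in 2.15% of microglia-like nuclei (95% Wilson interval 1.65% to 2.79%) at a median of 681 UMIs, against 0.272% of granule neuron-like nuclei at a median of 2121 UMIs. For C5ar1 the shares were 1.91% and 0.0879%.

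Outside microglia-like nuclei, C3ar1 stood apart in the TBI 2 library. In GABAergic neuron-like nuclei, the class next in order, it stood at 2.12, 3.22 and 1.64 CPM in the sham, naïve and TBI 1 rats and at 10.2 CPM in TBI 2. TBI 2 also stood apart in granule neuron-like nuclei, with 3.57 CPM against 0.642 to 0.790 CPM in the other 3 rats, and over all nuclei, with 5.37 CPM against 1.29 to 1.45. TBI 2 was also the library with the lowest median depth and the largest share of matrix entries stored with the value 0 (27.4%, against 1.63% to 15.5%). Among the C3ar1 entries themselves that share was highest in the naïve library, at 31.9%, against 17.6% in TBI 2, 5.45% in the sham and 2.38% in TBI 1, and the part of depth or of stored zeros in the C3ar1 values was not tested. Of all C3ar1 UMIs 19.5% fell in microglia-like nuclei and 24.5% in granule neuron-like nuclei. For C5ar1, 38.5% fell in microglia-like nuclei, and every other class averaged 1.46 CPM or less. In 434 endothelial-like nuclei C3ar1 had 0 UMIs, which allows a share of nuclei with a UMI of up to 0.691% at a floor of 3 counts, or 0.877% at the upper Wilson limit.

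The microglial level of C3ar1 rested on the shallower nuclei. Of the 2517 microglia-like nuclei, 131 held at least 1000 UMIs, and in these C3ar1 had 1 UMI, a mean of 4.09 CPM that was under the 4.37 CPM of GABAergic neuron-like nuclei at the same minimum. C5ar1 then had 2 UMIs (12.6 ± 14.7 CPM), Itgam 22 UMIs (123 ± 50.05 CPM) and Itgb2 15 UMIs (94.0 ± 38.2 CPM). C5ar1, Itgam and Itgb2 were still highest in microglia-like nuclei, C5ar1 from those 2 UMIs alone.

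**Figure D1:**
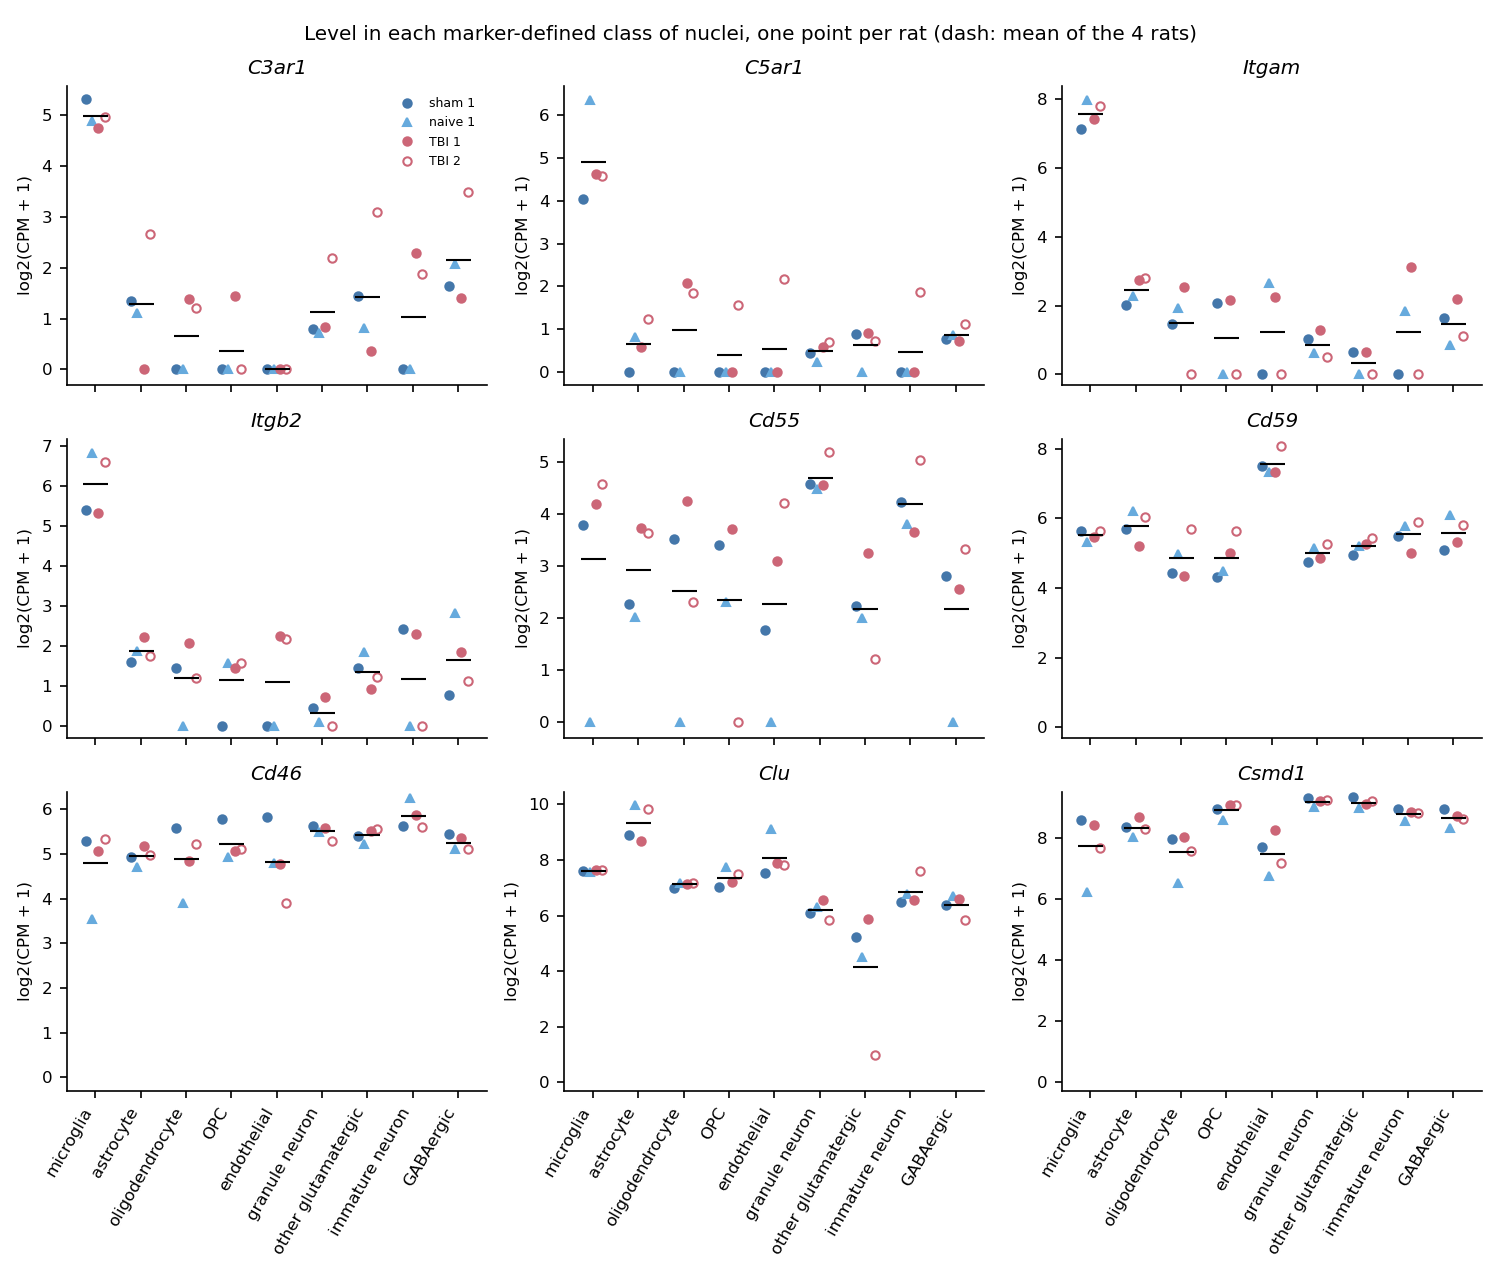
Level of each of the 9 genes in the 9 named classes of nuclei, as log2(CPM + 1) of UMIs summed per rat; dark circles are the sham rat, triangles the naïve rat, filled and open TBI symbols the rats TBI 1 and TBI 2, and dashes the mean of the log2 values. Itgam and Itgb2 separate microglia-like nuclei from all other classes in all 4 rats, Cd59 does so for endothelial-like nuclei, and Csmd1 is present in every class.

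Itgb2, the CD18 chain shared by the leukocyte integrins, had the largest bulk difference of the 7 genes. It stood at 11.3, 15.9 and 12.6 CPM in sham 1, 2 and 3 and at 28.4, 56.1 and 22.5 CPM in TBI 1, 2 and 3. Every TBI library lay above every sham library, as for 11.7% of all 14166 genes, and TBI 2 was the highest. The means were 13.2 ± 2.40 and 35.7 ± 18 CPM (SD, n = 3), and the Log2FC was 1.39 (SE 0.35, 95% interval 0.58 to 2.21). The unadjusted p was 0.00458 and the FDR 0.238 by edgeR's quasi-likelihood test with Benjamini-Hochberg adjustment, which missed the threshold of 0.01. DESeq2 gave an FDR of 0.00646 over all genes.

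The surgeries of the 6 bulk rats fell in 2 periods, and Itgb2 was higher in TBI within each, with a difference in mean log2 CPM of 1.08 in spring and 1.5 in autumn. Leaving out single libraries moved the Log2FC to values from 0.87, without TBI 2, to 1.65. Fixed microglia markers moved with it. All 12 were higher in TBI, 10 of them at an unadjusted p under 0.05 by edgeR, beside 8.2% of all genes, and 4 past an FDR of 0.01 by DESeq2, beside 1.17%, and their summed level was 330 to 346 CPM in sham and 534 to 927 CPM in TBI. Per 1000 CPM of that sum, Itgb2 stood at 32.9, 46.0 and 38.1 CPM in sham and at 53.1, 60.6 and 40.4 CPM in TBI, and these ratios overlapped. In bulk RNA more microglia and more Itgb2 RNA per microglial cell cannot be told apart, and the same holds for every bulk value here.

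C3ar1 and C5ar1 per 1000 CPM of microglia markers overlapped as well, at 2.62 to 6.57 CPM in sham and 3.26 to 4.93 CPM in TBI for C3ar1, and at 2.34 to 6.04 CPM in sham and 1.90 to 4.41 CPM in TBI for C5ar1. Border macrophage markers (Mrc1, Cd163, Lyve1 and F13a1) also differed, with a summed level of 9.74 to 11.8 CPM in sham and 16.1 to 46.6 CPM in TBI and all 4 higher in TBI. Their part in the Itgb2 values was not tested.

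**Figure D2:**
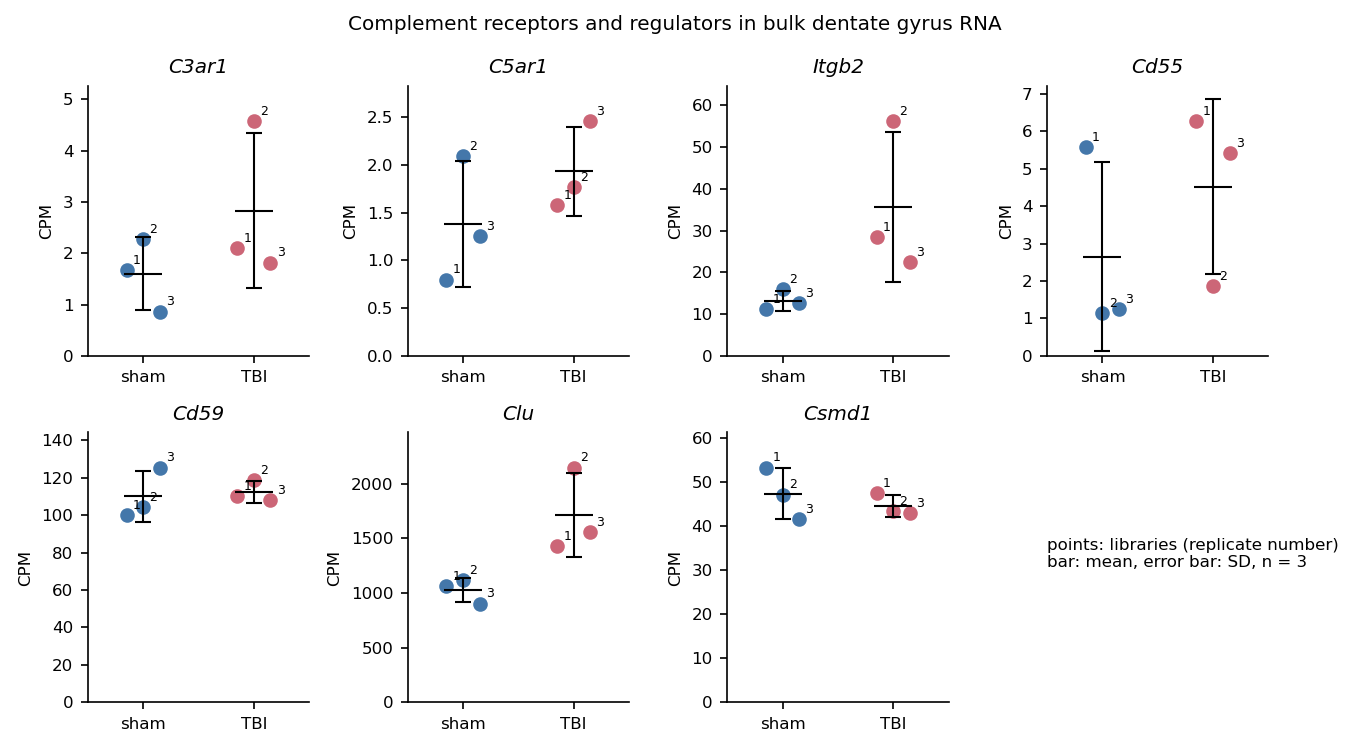
Bulk CPM of the 7 genes in the table, 1 panel per gene with its own axis from 0; points are libraries with their replicate number, the horizontal bar is the mean and the error bar the SD (n = 3 per group). All TBI libraries lie above all sham libraries for Itgb2 and Clu and the groups overlap for the other 5.

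Itgam, the CD11b chain that gives CR3 its ligand specificity, was measured in nuclei. In microglia-like nuclei it stood at 138 CPM in the sham, 251 in the naïve, 170 in the TBI 1 and 220 in the TBI 2 rat (195 ± 50.3 CPM, 349 UMIs), and both TBI rats lay between the controls. A UMI was found in 12.4% of microglia-like nuclei (95% Wilson interval 11.1% to 13.7%), against 0.196% of granule neuron-like nuclei, which were deeper. The next class in order was astrocyte-like nuclei with 4.64 ± 1.42 CPM, and 53.9% of all Itgam UMIs fell in microglia-like nuclei. The within-class Log2FC of TBI against control was 0.01 (SE 0.38, 95% interval -0.93 to 0.95; FDR 0.999 by edgeR's quasi-likelihood test with Benjamini-Hochberg adjustment on sums per rat).

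Itgb2 in microglia-like nuclei stood at 41.0, 113, 38.8 and 96.9 CPM in the sham, naïve, TBI 1 and TBI 2 rats (72.5 ± 38.2 CPM, 130 UMIs). The groups overlapped fully, with 1 low and 1 high rat in each. Its Log2FC was -0.13 (SE 0.62, 95% interval -1.64 to 1.38). For C3ar1 and C5ar1 the Log2FC in microglia-like nuclei was -0.27 (95% interval -1.45 to 0.92) and -0.98 (95% interval -2.87 to 0.90). Leaving out single rats turned the sign of all 4 values, and none passed the test.

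Over all nuclei, Itgam stood at 3.32 and 3.65 CPM in the sham and naïve rats and at 5.60 and 8.51 CPM in TBI 1 and TBI 2. Itgb2 stood at 1.33, 2.10, 2.22 and 3.83 CPM in the same order. Both TBI rats lay above both controls for both CR3 chains, as they did for 23.8% of all 15959 genes tested over all nuclei. The Log2FC was 0.95 for Itgam (95% interval 0.10 to 1.79, FDR 0.982 by edgeR's quasi-likelihood test with Benjamini-Hochberg adjustment) and 0.74 for Itgb2 (95% interval -0.35 to 1.83). Leaving out single rats gave 0.60 to 1.22 for Itgam and 0.28 to 1.12 for Itgb2, in both cases lowest without TBI 2. The share of microglia-like nuclei was 3.16% in the sham, 3.24% in the naïve, 4.65% in the TBI 1 and 7.19% in the TBI 2 library, which moved in the same order as both chains, and its part in these values was not tested.

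**Figure D3:**
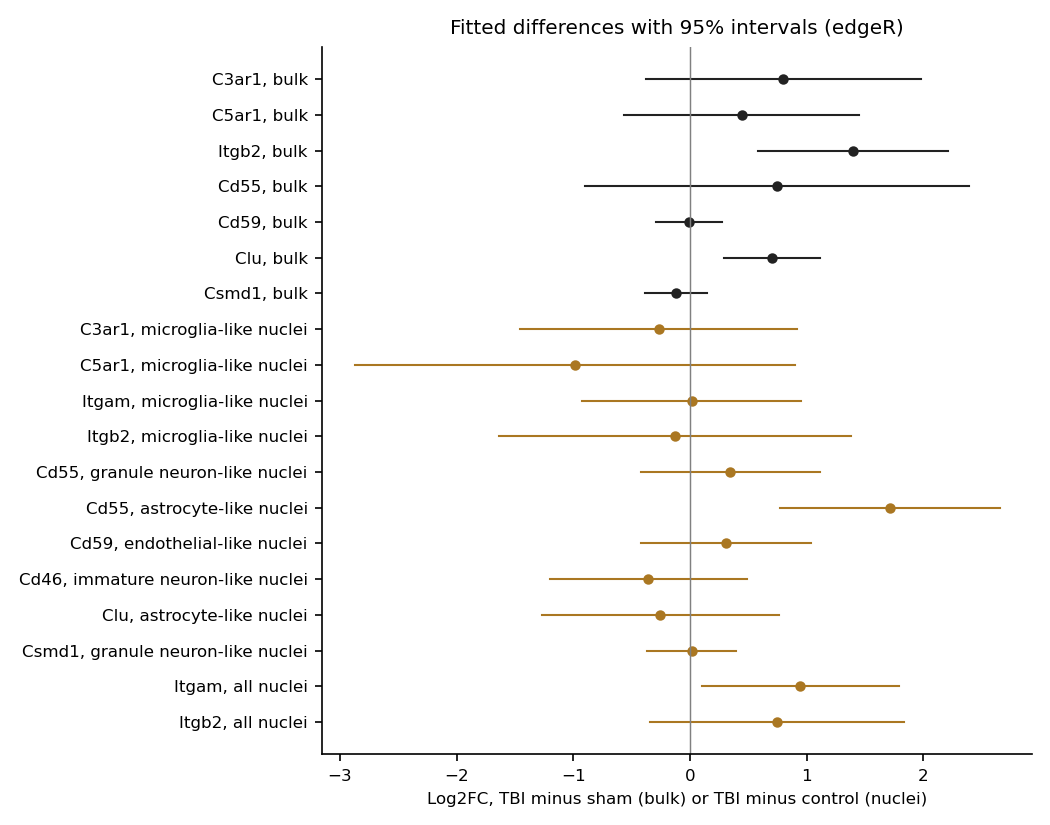
Log2FC with 95% intervals from edgeR for the 7 genes in bulk (TBI minus sham) and for selected classes of nuclei (TBI minus control). The bulk intervals of Itgb2 and Clu, the interval of Itgam over all nuclei and that of Cd55 in astrocyte-like nuclei do not include 0, and no value passed an FDR of 0.01 by edgeR.

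Cd55, the decay-accelerating factor, was a regulator that was highest in granule neuron-like nuclei. It stood there at 22.7, 21.2, 22.3 and 35.1 CPM in the sham, naïve, TBI 1 and TBI 2 rats (25.3 ± 6.54 CPM, 1390 UMIs), and 71.4% of all its UMIs fell in that class. The 3 granule clusters averaged 21.5, 25.7 and 33.1 CPM. The unnamed cluster of 4611 nuclei was lower, at 5.0, 2.21, 12.1 and 5.87 CPM. Another unnamed cluster, of 1718 nuclei, whose highest marker score was that of granule neurons, led by mitochondrial genes, was nearer to the granule clusters, at 21.4, 11.2, 26.4 and 16.0 CPM from 46 UMIs. The other glutamatergic and GABAergic neuron-like nuclei averaged 4.12 and 4.99 CPM. Immature neuron-like nuclei came next after granule neuron-like nuclei with 18.5 ± 9.27 CPM from 24 UMIs, and the rats of the 2 classes overlapped. The Log2FC in granule neuron-like nuclei was 0.35 (SE 0.30, 95% interval -0.42 to 1.11), with TBI 2 above and TBI 1 between the controls.

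In bulk RNA, Cd55 stood at 5.57, 1.14 and 1.25 CPM in sham 1, 2 and 3 and at 6.27, 1.86 and 5.42 CPM in TBI 1, 2 and 3. The groups overlapped because sham 1 was as high as the upper TBI libraries. The Log2FC was 0.75 (SE 0.70, 95% interval -0.90 to 2.39, FDR 0.808 by edgeR's quasi-likelihood test with Benjamini-Hochberg adjustment). It moved to 1.86 without sham 1 and to 0.39 without sham 2. The summed level of 5 granule neuron markers varied as widely, at 505, 82.8 and 88.4 CPM in sham and at 332, 99.4 and 278 CPM in TBI. Per 1000 CPM of that sum, Cd55 stood at 11, 13.7 and 14.2 CPM in sham and at 18.9, 18.8 and 19.5 CPM in TBI, and the groups did not overlap. Cd55 rested on 31 to 155 counts per library, and the share of all genes that separate under this scaling was not worked out. Against Prox1 alone, the transcription factor that marks granule neurons, the ratios were 52.7, 44.4 and 78.4 CPM per 1000 in sham and 82.5, 75.1 and 113 in TBI, and the groups overlapped. The granule marker level thus differed between libraries of the same group, and the unscaled Cd55 values moved with it. Within the surgery periods the difference in mean log2 CPM of Cd55 was 1.31 in spring and 1.34 in autumn.

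**Figure D4:**
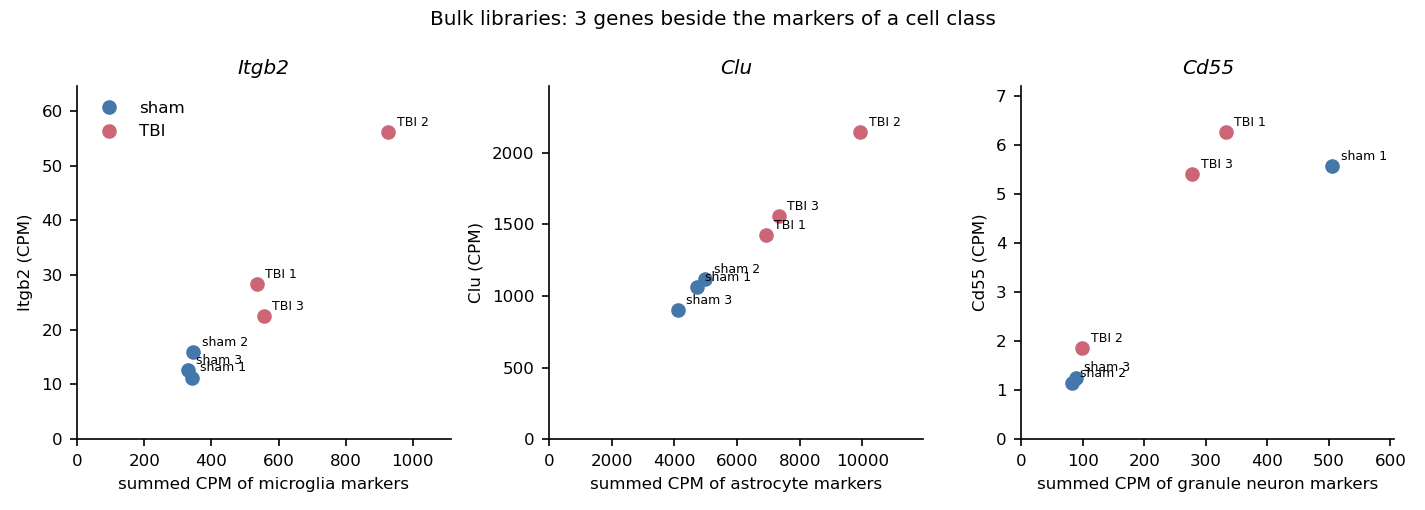
Bulk CPM of Itgb2, Clu and Cd55 (vertical axes) against the summed CPM of microglia, astrocyte and granule neuron markers (horizontal axes), 1 point per library. Itgb2 and Clu are highest where their marker sums are highest, and each TBI library holds more Cd55 for its summed granule marker level than any sham library. Against the granule marker Prox1 alone the Cd55 ratios of the groups overlap.

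Cd55 in astrocyte-like nuclei stood at 3.82 and 3.07 CPM in the sham and naïve rats and at 12.2 and 11.4 CPM in TBI 1 and TBI 2, from 115 UMIs. Both TBI rats lay above both controls, which held for 26.2% of the 12538 genes tested in that class, and the Log2FC was 1.71 (SE 0.40, 95% interval 0.77 to 2.65). The unadjusted p was 0.00332, which lay with 6.68% of genes that were higher at an unadjusted p under 0.05, and the FDR was 0.202 by edgeR's quasi-likelihood test with Benjamini-Hochberg adjustment. A neuronal gene moved in the same direction in the same nuclei. Slc17a7, the vesicular glutamate transporter of these neurons, stood at 192 and 223 CPM in the control rats and at 351 and 358 CPM in the TBI rats of the astrocyte-like class, and the part of such transcripts in the Cd55 values was not tested. The same order of Cd55 was found in microglia-like nuclei, with 12.8 and 0 CPM in controls and 17.3 and 22.7 in TBI (28 UMIs). Endothelial-like nuclei held 2.42 and 0 against 7.56 and 17.4 CPM (8 UMIs). Slc17a7 had this order there too, at 233 and 156 against 265 and 282 CPM in microglia-like nuclei. In endothelial-like nuclei it stood at 138 and 123 against 314 and 160 CPM. The share of all genes in this order is not given for these classes, and the part of neuronal transcripts was not tested. All nuclei together held 14.34 and 12.04 against 16.03 and 19.21 CPM, an order found for 23.8% of genes tested over all nuclei. In the other named classes the groups overlapped.

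Cd59, which stops the terminal pore, was highest in endothelial-like nuclei, at 179 CPM in the sham, 160 in the naïve, 159 in the TBI 1 and 272 in the TBI 2 rat (192 ± 53.5 CPM, 224 UMIs). Each rat there lay above every rat of every other class. A UMI was found in 33.2% of endothelial-like nuclei (95% Wilson interval 28.9% to 37.7%). Pericyte markers also stood high in this class, at a summed 3219 to 4061 CPM in control and 3156 to 4723 CPM in TBI rats. In astrocyte-like nuclei that sum was at most 181 CPM. The part of pericytes in the Cd59 values was not tested. The other 8 classes averaged 30.1 CPM in oligodendrocyte precursor-like nuclei to 56.3 CPM in astrocyte-like nuclei, and neighbours in that order did not separate over the rats. The Log2FC in endothelial-like nuclei was 0.31 (SE 0.35, 95% interval -0.42 to 1.04) and turned to -0.13 without TBI 2.

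In bulk RNA Cd59 had the smallest difference of the 7 genes. It stood at 100, 104 and 125 CPM in sham and at 110, 119 and 108 CPM in TBI, with overlapping groups, and the Log2FC was -0.01 (SE 0.12, 95% interval -0.29 to 0.27). The difference in mean log2 CPM was 0.11 among the spring rats and -0.15 among the autumn rats. The bulk row carries an Entrez identifier that the GRCr8 gene table lists as Cd59b.

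Cd46, the membrane cofactor protein, varied less between classes than the other regulators. Its class means lay between 30.1 CPM in astrocyte-like and 57.4 ± 12.8 CPM in immature neuron-like nuclei, where the sham, naïve, TBI 1 and TBI 2 rats held 48.3, 75.2, 58.1 and 47.8 CPM. Granule neuron-like nuclei came next with 44.6 ± 4.46 CPM, and no neighbouring classes separated over the rats. A UMI was found in 8.08% of immature neuron-like and 9.48% of granule neuron-like nuclei. The Log2FC was -0.36 in immature neuron-like nuclei (95% interval -1.20 to 0.48) and -0.17 in granule neuron-like nuclei (95% interval -0.58 to 0.25).

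The microglial cluster with neuronal transcripts gave the 1 lower Cd46 value with an interval off 0. There Cd46 stood at 68.4 and 78.9 CPM in the sham and naïve rats and at 38.5 and 10.1 CPM in TBI 1 and TBI 2, from 17, 21, 18 and 6 UMIs. Both TBI rats lay below both controls, as they did for 12.2% of the 6352 genes tested in that cluster, and the Log2FC was -1.72 (SE 0.55, 95% interval -2.91 to -0.54). The unadjusted p was 0.00787, where 1.97% of genes were lower at an unadjusted p under 0.05, and the value did not pass (FDR 0.999 by edgeR's quasi-likelihood test with Benjamini-Hochberg adjustment). Leaving out single rats moved this Log2FC to values from -2.88 to -1.02. Of the Cd46 entries 31.6% were stored as 0 in TBI 2, against 1.57% in TBI 1, 11.8% in the sham and 14.7% in the naïve library. Their part in these values was not tested. In the microglia-like class itself the groups overlapped, at 38.4, 10.6, 32.4 and 39.4 CPM, with 3 UMIs in the naïve rat. The Log2FC there was 0.47 (95% interval -1.13 to 2.07). The CR3 chain Itgam stood in that cluster at 40.2, 60.1, 42.7 and 55.7 CPM, under its level in the microglia-like class in all 4 rats.

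Clu, the secreted chaperone, was highest in astrocyte-like nuclei, where it stood at 473 CPM in the sham, 1022 in the naïve, 407 in the TBI 1 and 912 in the TBI 2 rat (703 ± 309 CPM, 11575 UMIs). A UMI was found in 61.9% of astrocyte-like nuclei, and 55.9% of all Clu UMIs fell in that class. Each group held 1 low and 1 high rat, and the Log2FC was -0.25 (SE 0.43, 95% interval -1.27 to 0.76), which leaving out the naïve rat or TBI 1 turned to 0.41 or 0.20. Entries stored as 0 made up 4.16% of the Clu entries in TBI 1, 23.6% in the sham, 39.0% in the naïve and 55.1% in the TBI 2 library, and their part in these differences was not tested.

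Endothelial-like nuclei came next for Clu with 299 ± 169 CPM and overlapped astrocyte-like nuclei, since the naïve rat held 551 CPM there. Astrocyte markers summed in that class to 2568 to 4892 CPM in control and 2172 to 2302 CPM in TBI rats. Their part in its Clu level was not tested. Microglia-like nuclei were the most even, at 195, 191, 198 and 198 CPM. Oligodendrocyte precursor-like, oligodendrocyte-like and immature neuron-like nuclei averaged 167, 138 and 121 CPM, and granule neuron-like nuclei 73.9 ± 16.1 CPM. The other glutamatergic neuron-like nuclei were lowest and least even, with 36.9, 22.1, 57.3 and 0.986 CPM, where TBI 2 held 3 UMIs. The Log2FC in that class was -0.14 with all rats and -4.80 without TBI 1. The latter fit had 1 TBI rat, TBI 2, whose value rests on those 3 UMIs.

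In bulk RNA Clu stood at 1061, 1117 and 903 CPM in sham 1, 2 and 3 and at 1425, 2145 and 1557 CPM in TBI 1, 2 and 3. Every TBI library lay above every sham library. The means were 1027 ± 111 and 1709 ± 383 CPM (SD, n = 3), and the Log2FC was 0.70 (SE 0.18, 95% interval 0.29 to 1.11). The unadjusted p was 0.00486 and the FDR 0.239 by edgeR's quasi-likelihood test with Benjamini-Hochberg adjustment. DESeq2 gave an FDR of 0.0173, above the threshold of 0.01. Within the surgery periods the difference in mean log2 CPM was 0.39 in spring and 1.02 in autumn.

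Astrocyte markers moved with Clu in the bulk libraries. Their summed level was 4102 to 4986 CPM in sham and 6913 to 9937 CPM in TBI, and 7 of the 8 measured were higher in TBI. Of the 8, 3 were higher at an unadjusted p under 0.05 by edgeR, beside 8.2% of all genes. By DESeq2 1 was higher at an FDR of 0.01, beside 1.17%. The median Log2FC of the 8 was 0.34, in a range of -0.08 to 1.66, so the markers did not move evenly. Per 1000 CPM of the summed astrocyte markers, Clu stood at 225, 224 and 220 CPM in sham and at 206, 216 and 213 CPM in TBI, so that scaled in this way every TBI library lay below every sham library. The ratio means were 223 ± 2.50 and 212 ± 4.93. The share of all genes that would lie below under the same scaling was not worked out. The part of the higher marker sum in this order was not tested. The share of astrocyte-like nuclei was not higher in the TBI libraries, at 8.21% and 6.76% against 12.2% in the sham and 8.48% in the naïve library.

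Csmd1 was present in all 9 classes and led by neurons. It stood in granule neuron-like nuclei at 637, 518, 590 and 615 CPM in the sham, naïve, TBI 1 and TBI 2 rats (590 ± 51.8 CPM, 33574 UMIs), with a UMI in 67.1% of nuclei, and 50.8% of all its UMIs fell there. The other glutamatergic neuron-like nuclei held 576 ± 64.7 CPM and oligodendrocyte precursor-like nuclei 494 ± 76.4 CPM, and neighbours in the order overlapped. The lowest were oligodendrocyte-like and endothelial-like nuclei, with 198 and 193 CPM.

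UMIs of the neuronal gene Slc17a7 were found in every class, so the level of Csmd1 in each class was set beside that of Slc17a7, both relative to granule neuron-like nuclei. For Csmd1 and Slc17a7 these ratios were 0.834 and 0.356 in oligodendrocyte precursor-like nuclei and 0.690 and 0.246 in GABAergic neuron-like nuclei. They were 0.557 and 0.551 in astrocyte-like, 0.416 and 0.474 in microglia-like, 0.330 and 0.336 in oligodendrocyte-like, and 0.323 and 0.366 in endothelial-like nuclei. Csmd1 thus exceeded the neuronal transporter in oligodendrocyte precursor-like and GABAergic neuron-like nuclei, and in the other 4 classes just named both ratios were close to each other.

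**Figure D5:**
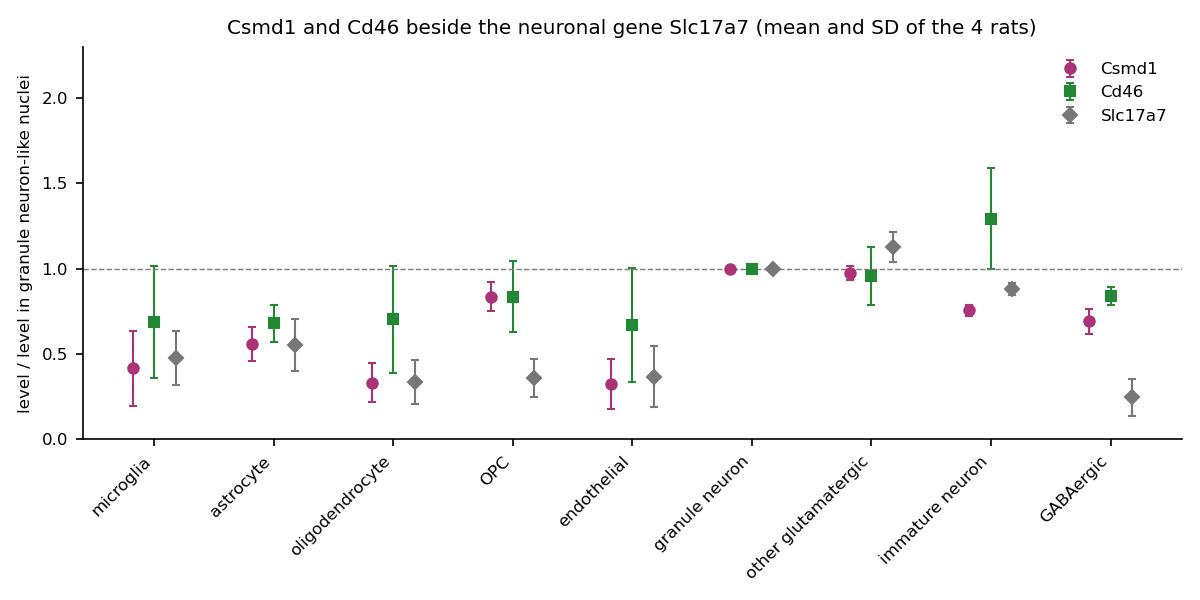
Level of Csmd1, Cd46 and the neuronal gene Slc17a7 in each class divided by the level in granule neuron-like nuclei of the same rat; points are means and bars the SD of 4 rats. Csmd1 lies above Slc17a7 in oligodendrocyte precursor-like and GABAergic neuron-like nuclei and close to it in astrocyte-like, oligodendrocyte-like, microglia-like and endothelial-like nuclei.

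The Csmd1 Log2FC in granule neuron-like nuclei was 0.02 (SE 0.15, 95% interval -0.37 to 0.40). In oligodendrocyte precursor-like nuclei it stood at 500 and 384 CPM in the sham and naïve rats and at 542 and 549 CPM in TBI 1 and TBI 2. Both TBI rats lay above both controls there, as for 16.4% of the genes tested in that class, and the Log2FC was 0.28 (95% interval -0.24 to 0.81). In microglia-like nuclei the rats ranged from 74.3 to 387 CPM and the groups overlapped. In bulk RNA it stood at 53.2, 47.1 and 41.6 CPM in sham and at 47.5, 43.3 and 43.0 CPM in TBI, with overlapping groups and a Log2FC of -0.12 (SE 0.11, 95% interval -0.39 to 0.15). The spring and autumn differences in mean log2 CPM were -0.08 and 0.05, of opposite sign.

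Counted together, 5 of the 7 genes measured in bulk were higher and 2 lower in TBI, and the median Log2FC was 0.70 (0.48 without TBI 2), against a median of -0.0029 over all genes. By edgeR 0 of the 7 passed an FDR of 0.01, as did 0% of all 14166 genes. At an unadjusted p under 0.05 by edgeR, 2 of the 7 were higher (Itgb2 and Clu), beside 8.2% of all genes, and 0 were lower, beside 1.4%. Those 2 were also the ones whose TBI libraries all lay above the sham libraries, beside 11.7% of all genes. By DESeq2 1 of the 7, Itgb2, was higher at an FDR of 0.01, beside 1.17% of all genes, and with the adjustment run only over genes with an unadjusted p under 0.05, Itgb2 and Clu both were, beside 3.26%. In nuclei a filter on low sums left 3 (endothelial-like) to 8 (microglia-like) of the 9 genes to be tested in a class. Over all nuclei all 9 were tested. By edgeR 0 of the genes of the list that were tested passed in any class, as did 0% of genes in every class. DESeq2 called 0.845% of genes in astrocyte-like nuclei and 0.00627% over all nuclei, none of them among the 9, and gave no adjusted p for Cd55 in astrocyte-like nuclei. At an unadjusted p under 0.05 the genes of the list higher in TBI were Cd55 in astrocyte-like nuclei and Itgam over all nuclei, where 2.09% of genes were higher at that p.

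Other genes of the pathway were read as fixed lists. Of 26 listed components that make the ligands 20 were measured in bulk, 18 of these were higher in TBI, 14 at an unadjusted p under 0.05 by edgeR (8.2% of all genes) and 8 past an FDR of 0.01 by DESeq2 (1.17% of all genes), with a median Log2FC of 1.32. C1qa, C1qb and C1qc, the chains of the recognition molecule of the classical pathway, had Log2FC of 1.32, 1.33 and 1.18 in bulk RNA. In microglia-like nuclei, where the 3 chains were highest, their Log2FC was below 0, at -1.53 (SE 0.89), -1.41 (SE 0.98) and -1.63 (SE 0.91). Their levels there differed widely between rats, at 566 ± 627, 431 ± 484 and 167 ± 196 CPM (SD over the rats). The SD thus exceeded the mean for each chain, and the part of single rats in these values is not reported here. In the microglial cluster with neuronal transcripts the Log2FC of the chains was -1.12, -1.42 and -0.98. The unadjusted p was 0.0243, 0.0465 and 0.113 by edgeR, and none of these passed the test. The protease genes C1r and C1s had 1.18 and 1.51, C2 had 1.93 (10.9 ± 1.28 to 42.5 ± 17.5 CPM), and C4a, the source of the C4 fragments, had 2.08 (4.71 ± 1.05 to 20.3 ± 6.89 CPM). C4a and C4b are near copies, so their counts may be shared. Cfd, a protease of the alternative pathway, had 2.76, from 0.491 ± 0.239 to 3.48 ± 1.5 CPM. The FDR of the genes named here lay at 0.196 or above by edgeR's quasi-likelihood test with Benjamini-Hochberg adjustment, and the smallest unadjusted p was 0.000161.

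Among the other receptors, 3 of the 7 listed were measured in bulk and all 3 were higher. C5ar2, another receptor of C5a, stood at 1.22 ± 0.153 CPM in sham and 2.76 ± 0.416 CPM in TBI (Log2FC 1.14, SE 0.29). Every TBI library lay above every sham library, as for 11.7% of all genes, and the rule by which list genes were named required this. Among the other regulators, 5 of the 10 measured were higher and 5 lower, and 3 were higher at an unadjusted p under 0.05 by edgeR, beside 8.2% of all genes. Serping1, the C1 inhibitor, stood at 7.32 ± 4.22 CPM in sham and 59.9 ± 29.3 CPM in TBI (Log2FC 3.00, SE 0.49). Fibroblast markers, which are genes of the meninges and of vessels, had a summed level of 34.5 to 74.3 CPM in sham and 78.1 to 962 CPM in TBI, and their part in these values was not tested.

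The integrins that share Itgb2 were measured too. Itgal, which pairs with Itgb2 to form LFA-1, stood at 1.75, 4.69 and 3.14 CPM in sham and at 6.43, 12.6 and 5.84 CPM in TBI (Log2FC 1.34, SE 0.44). Its TBI libraries all lay above the sham libraries, as for 11.7% of all genes. Itgad, another alpha chain of these integrins, stood at 18, 30.1 and 19.2 CPM in sham and at 34.1, 58.6 and 27.1 CPM in TBI (Log2FC 0.80, SE 0.33), and sham 2 lay above TBI 3. In nuclei C5ar2 and Itgal were highest in microglia-like nuclei, at 61.0 ± 29.1 and 34.1 ± 21.8 CPM, while Cr1l, a rodent regulator related to Cd55 and Cd46, was highest in endothelial-like nuclei at 118 ± 31.7 CPM.

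The genes most like each of the 9 in their levels over the 9 classes of nuclei were found by Pearson correlation of log2(CPM + 1) of the class means, with points that share libraries and depth. For Itgam these were Epsti1 (r = 0.995), Tmem119, a microglial marker used for naming (0.992), and C1qc (0.990). For C5ar1 they were Ssh2 (0.996), Gngt2 and Sectm1a, for C3ar1 Timd2 (0.976), Cd6 and AABR07026114.1, and for Itgb2 Exoc3l2 (0.988), Irf5 and Slc11a1. Cd55 was most like Vrk1 (0.980), Rfx3 and AABR07016721.1, and Cd59 most like Gja4 (0.986), a gap junction gene of arterial endothelium, Dnaja2 and AC128960.1. Cd46 was most like Fhl1 (0.966), Nae1 and Kcnk18, Clu most like Atp1b2 (0.983), Id4 and Gsta1, and Csmd1 most like AABR07026483.1 (0.988), AABR07026473.1 and Clip4.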

How the data were processed

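Bulk reads were mapped by the authors with kallisto (version not stated in the text or labels read here) within ExpressAnalyst to Rnor_6.0, and they deposited estimated counts of 31715 transcripts, not normalized, and log2 CPM of 14166 genes left by their filters on low counts and low variance. Gene counts were worked back here from the deposited log2 CPM (prior count 0.5) and the library totals and rounded to whole numbers. Of the genes, 69.1% equalled 1 transcript within 0.001, among them 6 of the 7 genes reported in bulk, for which the planned sum over transcripts is that same count. For Clu no such match was found and the sum was not made. A deposited sheet also gives the date of each injury, used here only as spring or autumn. Cell Ranger counted the reads of nuclei, introns included, and the authors deposited UMI counts per nucleus.

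The study's filters on nuclei (at least 500 UMIs, 300 features and 0.8 log10 genes per UMI, at most 5% mitochondrial and 2% ribosomal UMIs) kept 55124 of 55863. Seurat 5.3.0 clustered them (2000 variable features without the 9 genes and the complement lists, 25 components, CCA integration, resolution 0.6) into 23 clusters. A cluster took a class name where its markers led by a median log2 fold of at least 1 with a margin of 0.5 and at least 3 markers, and none where its 10 leading genes held more markers of another class than of its own. Glutamatergic clusters were named by their level of Slc17a7 and Slc17a6, and all these limits were set after the scores had been seen. No annotation by the authors was used, so class names may not match those of the study. Doublets stayed in, since no removal is described. Scrublet, run in scanpy 1.11.5, called 523 doublets (3.09%) among the sham nuclei and 0 in the other 3 libraries, so an alternative dropped the top scores up to the expected doublet rate.

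The main test was edgeR 4.0.16's quasi-likelihood test (TMM, Benjamini-Hochberg over all genes) in R 4.3.3, on gene counts of 3 sham and 3 TBI rats and on UMI sums per rat and class of 2 TBI and 2 control rats, with a threshold FDR of 0.01. It was tested on simulated data. Shares carry 95% Wilson intervals and a floor of 3 counts, both for counting error only. Levels in different classes were described without a test, because the classes came from the same nuclei. DESeq2 1.42.0, limma 3.58.1 on log2 CPM, other size factors and filters, left-out rats, a replicate block and a surgery period term were alternatives. The study ran DESeq2 on its bulk counts and a Wilcoxon rank sum test on nuclei, and the latter was not repeated here. In the study, multiple testing was corrected among genes at p under 0.05, so the bulk DESeq2 p-values were adjusted in that way too. Same-numbered sham and TBI libraries correlated in their deviations by 0.35, 0.17 and -0.03, so the numbers were not read as pairs. The text names each of the 9 genes, up to 12 genes of the lists with an unadjusted p under 0.05 and no overlap in bulk, and the 3 genes most like each of the 9 over the classes. Itgal, Itgad and Cr1l were added after their values had been seen. An item that the rule takes in is not reported here. The 9 genes and the lists were chosen with earlier results of these data known.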

Additional observations from a re-analysis of the deposited data

How the results depend on the processing

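In bulk the count of genes past an FDR of 0.01 was 0 by edgeR, 169 by DESeq2, 475 by DESeq2 adjusted only over genes with an unadjusted p under 0.05, and 0 with each library left out. Of the 7 genes measured, 0 passed by edgeR, 1 by DESeq2 (Itgb2), 2 with that narrower adjustment (Itgb2 and Clu) and 0 with each library left out. The cause of the gap between tools was not tested. The replicate block gave 1 gene past the threshold and 0 of the 7, with an FDR of 0.0647 for Itgb2 by edgeR, and the numbers share no label of pairing. With the surgery period as a term the unadjusted p of Itgb2 was 0.0153 by edgeR. Cd59 in bulk turned to 0.036 by limma and lay between -0.081 and 0.093 with a library left out.

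In nuclei the count of genes past the threshold over the classes was 0 by edgeR, 106 by DESeq2, 379 without a filter on low sums, and 2 to 190 with a rat left out, while 0 to 1 of the 9 genes passed with a rat left out. No paired analysis was possible because the TBI and control nuclei share fewer than 2 replicate numbers. Without the filter, Cd55 in astrocyte-like nuclei had an FDR of 0.0219 by edgeR. The Log2FC of Itgam in microglia-like nuclei turned to -0.015 by DESeq2, -0.013 with RLE size factors and -0.085 with the mixed clusters joined to their glial class, an alternative chosen after seeing the data. That of Csmd1 in granule neuron-like nuclei turned to -0.0074 without the filter. With a rat left out, the Log2FC lay between -0.48 and 0.047 for C3ar1, -1.75 and 0.55 for C5ar1, -0.31 and 0.46 for Itgam and -0.91 and 0.72 for Itgb2 in microglia-like nuclei. It lay between -0.96 and 0.41 for Clu in astrocyte-like, -0.13 and 0.64 for Cd59 in endothelial-like, -0.11 and 0.68 for Cd55 and -0.11 and 0.13 for Csmd1 in granule neuron-like, and -0.60 and 0.062 for Cd46 in immature neuron-like nuclei. The class in which each of the 9 genes was highest held under the other clusterings, filters and left-out rats run, except for C3ar1 at 1000 UMIs or more per nucleus. With the mixed cluster joined, Itgam in microglia-like nuclei stood at 127 CPM and C3ar1 at 21.9 CPM.

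With 2 rats a group and few UMIs per receptor, the intervals in microglia-like nuclei reach past 0.9 on the log2 scale, so smaller changes were not detectable there.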
